A study of Mus musculus with 16 samples.

Results

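Glycolysis turns glucose into pyruvate and lactate, and the enzymes described here carry its steps after the entry of glucose. The 10 genes were chosen by symbol, Gpi1, Aldoa, Tpi1, Gapdh, Pgk1, Pgam1, Eno1, Pkm, Ldha and Ldhb, out of 52542 gene entries of the count tables, and all 10 had counts. They were measured in Lin–Sca1+Kit+ (LSK) cells of bone marrow, among which are haematopoietic stem cells and their early multipotent progeny. Lethally irradiated CD45.1/CD45.2 mice on the C57BL/6J background had received fetal liver cells in a 1:1 mixture of Regnase-1–/–Regnase-3–/– (CD45.2) and control (CD45.1) origin. LSK cells were sorted 1 per well 4 weeks later. Regnase-1 and Regnase-3 are RNA-binding proteins of the Zc3h12 family, and Regnase-1 is known to cut and destabilise inflammatory mRNAs. By their labels the 16 libraries form 1 group with neither a genotype nor a mouse named for a library or a well, so no comparison of genotypes was made.

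Gpi1 encodes the isomerase at the top of the chain studied here, Aldoa the aldolase that splits the sugar, and Tpi1 the enzyme that interconverts the products of that split. Gapdh and Pgk1 act at the steps that make NADH and the first ATP of the pathway, Pgam1 and Eno1 rearrange the product, and Pkm makes pyruvate and ATP. Lactate dehydrogenase is a tetramer of Ldha and Ldhb subunits, of which Ldha-rich forms favour lactate formation and Ldhb-rich forms favour the return to pyruvate. Haematopoietic stem cells of adult marrow are known for a high reliance on glycolysis, in which the hypoxia-inducible factor HIF-1 and its regulator Meis1 take part. HIF-1 binds a core motif written ACGTG, and several of these genes are known targets of it in mammals.

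The promoters are shown because HIF-1 is a known regulator of the pathway, and the letters show which of them carry the core motif close to the start. ACGTG was searched on both strands, that is as ACGTG or CACGT, in the 250 bases before each RefSeq transcription start (GRCm38.p6). A match inside CACGTG also matches the E-box bound by Myc and its relatives. Of the 10 genes 5 had at least 1 match, and the others, Gpi1, Tpi1, Gapdh, Eno1 and Ldhb, had none in this window. Capitals mark the matches in the 30-base stretches below.
Ldha, chr7:46845750-46845779, plus strand: agcctaCACGTGggttcccgCACGTccgct
Pgk1, chrX:106186947-106186976, plus strand: aggACGTGacaaatggaagtagCACGTctc
Pgam1, chr19:41911744-41911773, plus strand: gcgctccttgcttACGTGcgctccgtgact
Pkm, chr9:59657139-59657168, plus strand: cctccgatccggtCACGTccgcgccgcagc
Aldoa, chr7:126799364-126799393, minus strand: atgtggctcgagtCACGTcctagcggggcg
Ldha held 3 matches, the nearest 34 bases before the start, and Pgk1 held 2, the nearest 131 bases before it. Ldha and Pkm each had a match at 1 of 2 starts and Aldoa at 2 of 3. The nearest match lay 75 bases before the start in Pkm, 114 in Pgam1, and 126 or 202 in Aldoa depending on the start used. In the whole RefSeq set, 18.5% of 27025 genes had a match at 1 start or more. Over its 32851 promoters 16.6% had a match, 1.95% had 2 or more and 0.256% had 3 or more. A match is a description of the letters and not of binding, and nothing was measured here on the factor.

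A second sequence matters for reading the counts, since Gapdh has many near-identical copies in the mouse genome. Gm5559, annotated at chr5:95861714-95862715 on the plus strand (GRCm38), has 1002 bases and differs from the Gapdh coding sequence at 1 base, T385A, with positions counted from 1 at the first coding base. The stretches below run from position 370 to 399, and the capital marks the base that differs.
Gapdh, on the minus strand of chromosome 6: gccgatgcccccatgtttgtgatgggtgtg
Gm5559, chr5:95862083-95862112, plus strand: gccgatgcccccatgAttgtgatgggtgtg

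The assay was MARS-seq, in which mRNA 3′ ends of sorted cells are counted with unique molecular identifiers (UMIs), short random tags that mark each captured molecule once. Since 1 tag stands for 1 transcript end, levels are given as UMIs of the gene scaled to 1e6 UMIs of the sum (CPM) and can be set side by side between genes with no division by length. Each of the 16 libraries was 1 set of wells and held 521435 to 822534 UMIs (median 660722). Wells counted as cells when they were not listed as empty, held 500 UMIs or more and had under 20% mitochondrial UMIs. This left 5157 cells, 295 to 345 per library, with a median of 1146 to 1993 UMIs per cell by library, and no well name was shared between libraries. Of the LSK markers Kit, Ly6a, Cd34, Sox4 and Adgrg1, 5 of 5 were found, at 1648 to 2296 CPM summed. Of 10 mature myeloid markers 9 were found, at 0 to 18.5 CPM summed, with Ltf at 0, and of 4 mature B cell markers 4, at 23.2 to 63.99. Of 7 T and NK cell markers 5 were found, at 95.8 to 206 CPM summed, with Cd3e and Cd3d at 0, and of 6 red cell markers 5, at 105 to 378, with Alas2 at 0. Of 7 stromal and endothelial markers 5 were found, at 32.4 to 158 CPM summed, with Lepr and Cdh5 at 0. In several of these lists 1 gene held most of the UMIs over all kept cells. Nkg7 held 1545 of 1562 T and NK cell UMIs, and Cd79b 398 of 434 mature B cell UMIs. Hbb-bt held 1573 of 1794 red cell UMIs, and Pecam1 585 of 626 stromal and endothelial UMIs. The sums of these lists thus say little about their other genes. The well table lists 6 libraries (11 to 16) in sequencing batch SB343 and 9 (2 to 10) in SB341, and it has no entry for library 1. Libraries also stood apart by Nfkbiz, with 12 to 36 UMIs in libraries 9 to 16 and 0 to 4 in libraries 1 to 8, a split that crosses the batches.

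Ldha and Pkm, the enzymes at the end of the pathway, were the most abundant of the 10, and Eno1, Ldhb and Gapdh were the least. The 10 enzymes together gave 20287 UMIs, 1704 to 2196 CPM by library (median 1939). Ldha had 373 to 570 CPM (median 490), and a UMI of it was found in 47.1% of cells (Wilson 95% interval 45.7% to 48.4%). Pkm had 252 to 415 CPM (median 333) and was found in 39.8% of cells. Ldha was above Pkm in 15 of 16 libraries, and Pkm above Gpi1, the next in order, in 15 of 16.

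The middle of the order was close. Gpi1 had 206 to 286 CPM (median 247) and was above Pgk1 in 15 of 16 libraries. Pgk1 had 101 to 235 CPM (median 207), Tpi1 172 to 271 (median 205) and Aldoa 154 to 295 (median 205). These neighbours did not differ beyond their spread, since Pgk1 was above Tpi1 in 8 of 16 libraries and Tpi1 above Aldoa in 8 of 16. Pgam1 had 128 to 222 CPM (median 185) and was below Aldoa in 10 of 16 libraries.

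Eno1, Ldhb and Gapdh formed the low end. Eno1 had 10.6 to 149 CPM (median 44.1) and was found in 10.6% of cells. Ldhb had 14.2 to 52.8 CPM (median 32.8) and was found in 5.08% of cells. Eno1 was above Ldhb in 11 of 16 libraries. Gapdh had 57 UMIs in all, 1.28 to 11.4 CPM by library (median 6.15), and was found in 1.07% of cells, below Ldhb in 16 of 16 libraries. Intervals here cover counting error only.

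**Figure D1:**
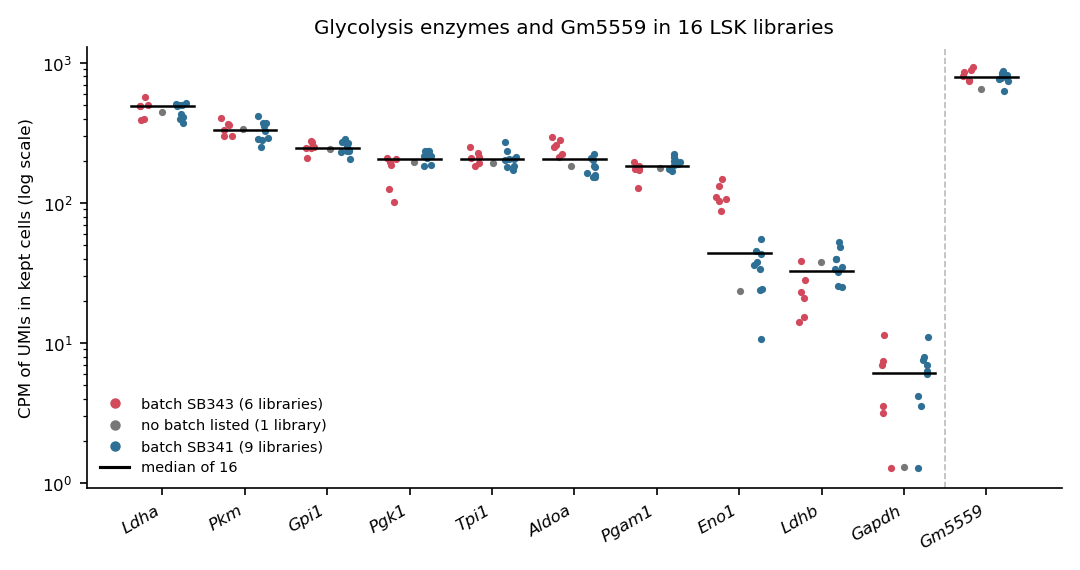
CPM of each enzyme and of the Gapdh copy Gm5559 in each of the 16 libraries, on a log axis, coloured by sequencing batch, with a line at the median. Ldha (median 490) and Pkm (333) lead, the middle genes overlap, and Gapdh (6.15) lies far below Gm5559 (795).

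The level listed for Gapdh is that of its own entry only. Counting entries whose annotated transcripts match at 95% identity or more over at least 200 bases, Gapdh had 91 copies, of which 88 were in the tables and 79 had UMIs. These copies held 11795 UMIs, which is 99.5% of the UMIs of Gapdh and its copies summed. Gm5559 alone held 8223, at 635 to 933 CPM by library (median 795), and had a UMI in 65.6% of cells. Its match to Gapdh ends 178 bases before the Gapdh 3′ end. Gm10359 and Gm12671, whose matches end at the same distance, have 100% identity over 1002 bases and held 62 and 4 UMIs. With its copies Gapdh summed to 961 to 1330 CPM (median 1177), above Ldha in place of below it. The sources used here do not say how reads that match several loci were assigned, so the Gapdh entry is uncertain as a measure of Gapdh mRNA.

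Copies held smaller shares for the other enzymes. They held 27.0% of the UMIs of both for Eno1 (Gm4735, Gm5855 and Eno1b), 16.5% for Ldhb (Gm5514), 13.9% for Pgam1 (Pgam1-ps2) and 13.5% for Gpi1 (Gm1840). The share was 4.68% for Tpi1, 2.68% for Pgk1, 1.12% for Ldha and 0.71% for Pkm, and no copy of Aldoa was in the tables. These shares count only UMIs assigned to a copy. Since the handling of reads that match several loci is not known, they do not bound what a level may lack. Eno1 had the largest share of these. Its copy Eno1b matches it at 99.5% identity over 1736 bases, up to 3 bases from the 3′ end, so the low level of Eno1 is uncertain as well.

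In the GRCm38 annotation the genes lie on several chromosomes. Gpi1 is at chr7:34201330-34230336, Aldoa at chr7:126795234-126800751, Tpi1 at chr6:124810586-124814296, Gapdh at chr6:125161715-125166467 and Ldhb at chr6:142490249-142507957, all on the minus strand. Pgk1 is at chrX:106187100-106203699, Pgam1 at chr19:41911923-41918660, Eno1 at chr4:150236721-150248879, Pkm at chr9:59656368-59679375 and Ldha at chr7:46841475-46855627, all on the plus strand. Gpi1, Aldoa, Tpi1 and Gapdh overlap an annotated gene on the opposite strand (Gm26762, Fam57b, Spsb2 and Iffo1), and Pkm overlaps Gm49759 on the same strand. The sources used here do not say whether the counting used strand.

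The spread between libraries differed by enzyme. The SD over the 16 libraries was close to what counting alone gives for Gapdh (1.08 times the counting SD), Gpi1 (1.16 times) and Pgam1 (1.27 times). It was 2.11 times for Ldha, 2.10 for Pgk1 and 2.04 for Pkm, 2.47 for Aldoa and 4.37 for Eno1. Eno1 thus varied most beyond counting, from 10.6 CPM in library 4 to 149 in library 15. Single cells held few molecules of each enzyme. Of the 5157 cells, 646 had no UMI of any of the 10 genes, 1159 had a UMI of 1 of them, 1113 of 2, and 3 cells had UMIs of 9. With each cell thinned to 500 UMIs, 41.1% of cells had none, so 0 UMIs in a cell is not read here as absence of the transcript.

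The question of which LSK cells carry more of these transcripts was addressed with marker gates. A cell was put in a lineage gate when it had at least 3 UMIs summed over that gate's markers and fewer than 3 in each other gate, and no enzyme of the 10 is among the markers. The granule gate (Mpo, Elane, Prtn3 and other granule genes of the neutrophil lineage) held 714 cells, the lymphoid gate (Dntt, Flt3, Il7r and others) 690, the megakaryocyte-erythroid gate (Pf4, Itga2b, Klf1 and others) 164 and the stem gate (Mecom, Hlf, Procr and others) 254. Another 512 cells passed several gates and 2823 passed none. The gates differ in depth, with medians of 2288.5, 1907, 2436 and 1801 UMIs per cell in the granule, lymphoid, megakaryocyte-erythroid and stem gates. UMIs were summed per library and gate where a gate had at least 10 cells, and pairs of sums of the same library were tested with edgeR's quasi-likelihood test with the library as a block, the p-values adjusted by the Benjamini-Hochberg method over all genes tested. A gene was called at an adjusted p under 0.05. Cells were placed by their own RNA, libraries may share mice, and the comparisons share gate sums, so the p-values measure spread between these libraries only.

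Over the 4 gates the 10 enzymes together summed to a median of 2237 CPM in the granule gate (1634 to 2744, 16 libraries), 1662 in the lymphoid gate (1295 to 1846, 16 libraries), 1825 in the megakaryocyte-erythroid gate (1609 to 2313, 8 libraries) and 1902 in the stem gate (1186 to 2240, 14 libraries). The granule gate had the highest median and the lymphoid gate the lowest, and their ranges overlapped. The enzymes did not share 1 order of gates. Ldha had its highest median, 709 CPM, in the megakaryocyte-erythroid gate, Pgam1 its highest, 281 CPM, in the granule gate, and Pkm its highest, 364 CPM, in the stem gate. Pgam1 was lowest in the megakaryocyte-erythroid gate, at a median of 75.9 CPM, and so was Pkm, at 207 CPM. Pooled over all cells of the gate they had 105 and 194 CPM, again the lowest of the 4. The gates draw on unlike libraries, since the 8 of this gate include all 6 of SB343. Pgam1 had lower medians in SB343 than in SB341 in the granule gate (246 and 312 CPM) and the lymphoid gate (101 and 155 CPM). The part of the batch in the gate medians was not tested.

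**Figure D2:**
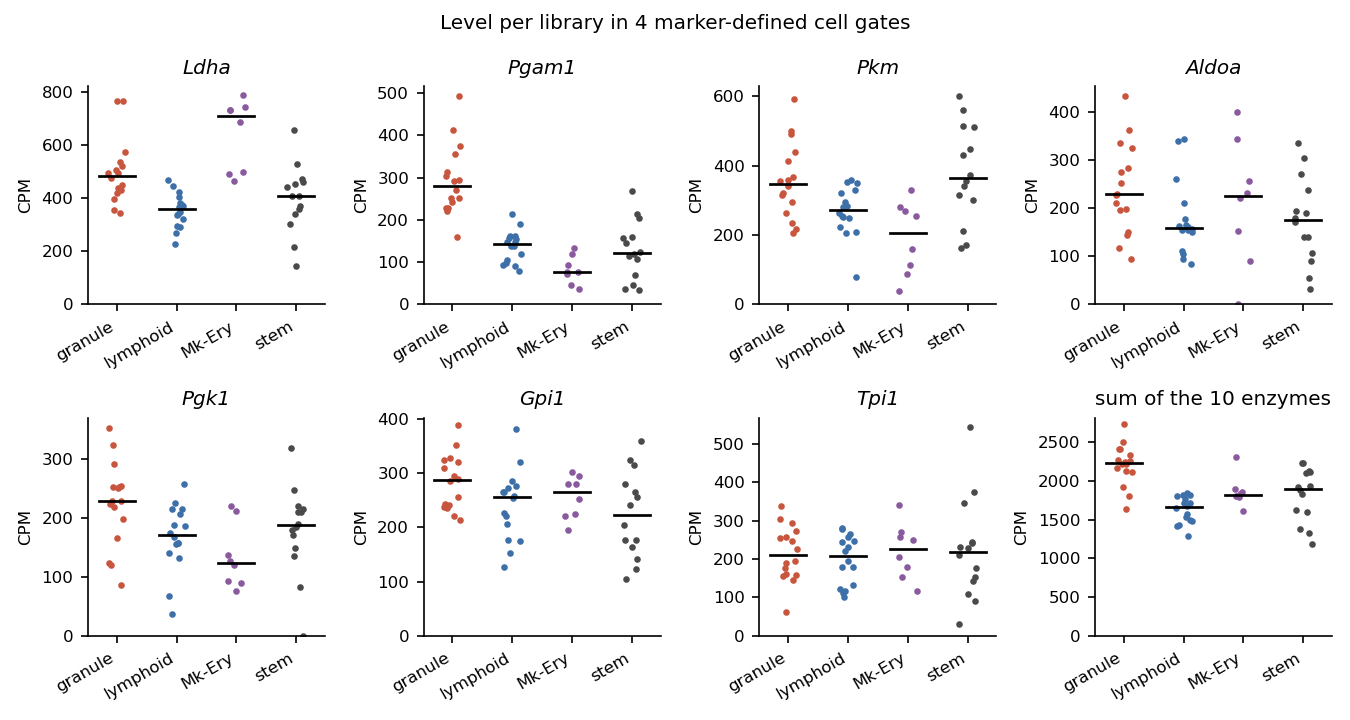
CPM per library (points) and median (line) of 7 enzymes and of the sum of the 10 in the granule, lymphoid, megakaryocyte-erythroid (Mk-Ery) and stem gates, each axis starting at 0. Pgam1 is highest in the granule gate (median 281 CPM) and Ldha in the Mk-Ery gate (median 709 CPM), while Tpi1 lies at similar medians in all 4 gates.

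Granule gate cells had more Pgam1, Ldha and Pkm transcripts than lymphoid gate cells of the same libraries. Of the 10 enzymes 7 passed the filter on low counts, 3 were called higher and 0 lower, where 133 of 1621 tested genes (8.2%) were called, 3.58% higher and 4.63% lower. All 7 had a fold change above 0, with a median log2 fold change of 0.38, against 0.00 over all tested genes. Eno1, Ldhb and Gapdh were too low to be tested.

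Pgam1, the phosphoglycerate mutase, differed most. It had 159 to 494 CPM (median 281) in the granule gate, against 79.3 to 214 CPM (median 143) in the lymphoid gate. The granule sum was the higher in 16 of 16 libraries, although the ranges overlapped. The means were 294 ± 83.3 and 137 ± 37.4 CPM (SD, n = 16 pairs), a log2 fold change of 1.02 ± 0.14 (SE) with an adjusted p of 4.12e-08. A UMI of Pgam1 was found in 44.1% of granule gate cells and 23.6% of lymphoid gate cells. With cells thinned to 500 UMIs the shares were 12.9% (Wilson 95% interval 10.6% to 15.5%) and 6.52% (4.91% to 8.62%), so the granule gate had the higher share before and after thinning.

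Ldha, the lactate-forming subunit, had 343 to 770 CPM (median 485) in the granule gate, against 227 to 471 CPM (median 358) in the lymphoid gate. It was higher in 15 of 16 libraries, with overlapping ranges. The log2 fold change was 0.45 ± 0.10 (SE), with an adjusted p of 0.000742. Within batch SB341 Ldha was called (0.62, adjusted p = 0.00136, 9 libraries), and within SB343 it was not (0.28, adjusted p = 0.479, 6 libraries). In cells of 1500 to 3000 UMIs only, it was not called either (0.33, adjusted p = 0.395, 12 libraries).

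Pkm, which makes pyruvate, had 206 to 592 CPM (median 348) in the granule gate, against 79.3 to 358 CPM (median 271) in the lymphoid gate, and was higher in 11 of 16 libraries. Its log2 fold change of 0.35 ± 0.11 (SE) had an adjusted p of 0.0421, close to the threshold. The call was lost in 18 of 28 alternatives, DESeq2, both batches taken alone and the 1500 to 3000 UMI range among them, as well as without library 1, 7, 9, 10, 11, 13, 14, 15 or 16, each in turn. The fold change stayed between 0.20 and 0.60 in all of them, with adjusted p-values from 0.0254 to 0.603. This call rests on a narrow margin.

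The other enzymes tested by their own entries were not called. The log2 fold changes were 0.39 for Aldoa (adjusted p = 0.108), 0.38 for Pgk1 (adjusted p = 0.112), 0.22 for Gpi1 (adjusted p = 0.348) and 0.09 for Tpi1 (adjusted p = 0.807). The granule sum was the higher in 12 of 16 libraries for Pgk1 and in 10 of 16 for Aldoa, Gpi1 and Tpi1. Gm5559, the Gapdh copy, was higher in the granule gate by 0.42 (adjusted p = 3.81e-05), with 908 ± 196 CPM, against 669 ± 147 CPM in the lymphoid gate (SD, n = 16 pairs). With all copies added to its entry Gapdh was higher by 0.46 (adjusted p = 3.16e-07). Mitochondrial shares were 10.4% in both gates, mitotic markers summed to 3022 CPM in the granule gate and 3410 in the lymphoid gate, T and NK cell markers to 165 and 107, red cell markers to 119 and 74.6, and mature myeloid markers to 6.90 and 5.28. Their part in these differences was not tested. In the other comparisons Gapdh with its copies was not called by edgeR. Its log2 fold change was 0.23 between the granule and stem gates (adjusted p = 0.159) and -0.22 between the lymphoid and stem gates (adjusted p = 0.166). It was -0.16 between the megakaryocyte-erythroid and stem gates (adjusted p = 0.676). Between mitotic and non-mitotic cells it was 0.08 (adjusted p = 0.507), and between SB343 and SB341 -0.11 (adjusted p = 0.519).

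**Figure D3:**
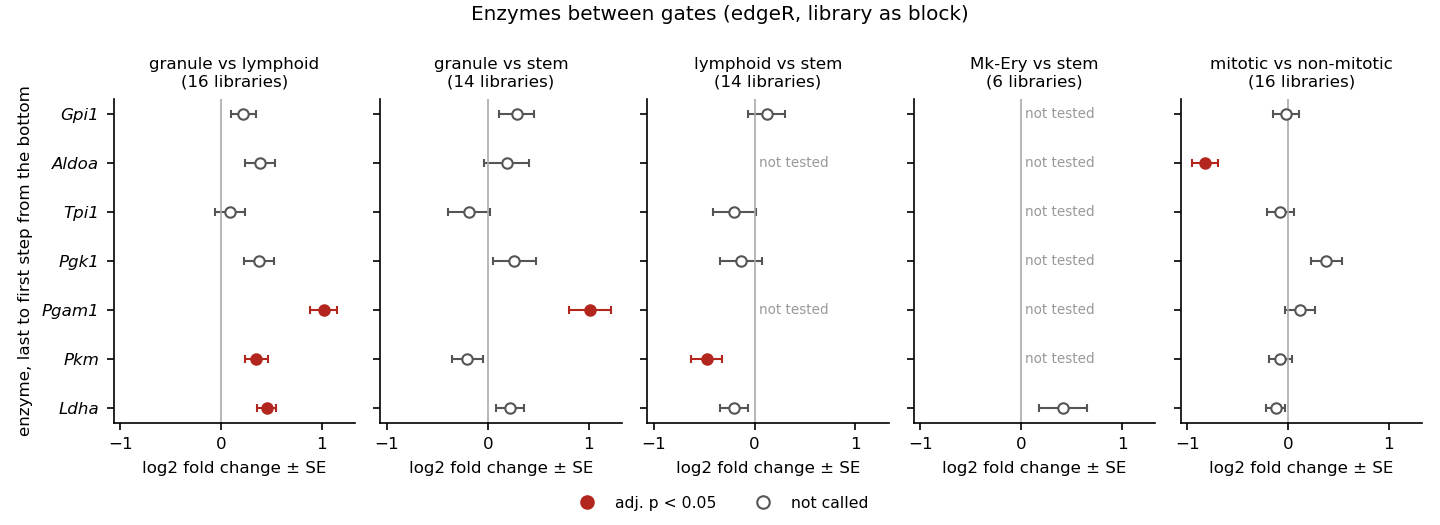
Log2 fold change (points) with SE (bars) of the 7 enzymes that could be tested, from Gpi1 at the top to Ldha at the bottom, in 5 comparisons, with filled points for an adjusted p under 0.05. Pgam1 stands at 1.02 and 1.01 in the 2 comparisons of the granule gate, and Aldoa at -0.82 between mitotic and non-mitotic cells.

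Pgam1 was also the enzyme called between granule gate and stem gate cells. Of 7 enzymes tested 1 was called, where 68 of 759 tested genes (8.96%) were, 3.16% higher and 5.8% lower. Pgam1 had 299 ± 87.9 CPM in the granule gate and 129 ± 69.7 CPM in the stem gate (SD, n = 14 pairs), and was higher in 14 of 14 libraries. The log2 fold change was 1.01 ± 0.21 (SE), with an adjusted p of 0.000423. Within SB341 it was 1.19 (adjusted p = 0.00128, 9 libraries) and within SB343, with 4 libraries, 1.17 (adjusted p = 0.222). The call was also lost with 5 marker UMIs per gate. Over 25 alternatives the fold change was 0.57 to 1.44, with adjusted p-values from 6.21e-08 to 0.537 by edgeR or DESeq2.

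The other enzymes had smaller fold changes between these gates. Ldha had a log2 fold change of 0.22 (adjusted p = 0.413) and Gpi1 one of 0.29 (adjusted p = 0.382). Pgk1 had a log2 fold change of 0.26 (adjusted p = 0.499), Aldoa 0.19 (adjusted p = 0.687), Tpi1 -0.19 (adjusted p = 0.658) and Pkm -0.20 (adjusted p = 0.486). None of these 6 was called, and an adjusted p above the threshold does not show that the levels were alike. The sums held a median of 112545 UMIs per library in the granule gate and 32827.5 in the stem gate. Red cell markers summed to 119 CPM in the granule gate and 388 CPM in the stem gate, and their part in these values was not tested.

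Pkm was the enzyme called between lymphoid gate and stem gate cells. It was lower in the lymphoid gate, 287 ± 49.2 CPM, against 379 ± 140 CPM in the stem gate (SD, n = 14 pairs), and lower in 11 of 14 libraries. The log2 fold change was -0.48 ± 0.15 (SE) with an adjusted p of 0.0453. Of 5 enzymes tested this was the 1 called, where 49 of 745 tested genes (6.58%) were, 2.28% higher and 4.3% lower. The call was lost in 20 of 26 alternatives, DESeq2 and each batch taken alone among them, as well as without library 1, 4, 5, 6, 7, 8, 9, 10, 12 or 13, each in turn, with adjusted p-values from 0.0176 to 0.989. Ldha (-0.20), Tpi1 (-0.20), Pgk1 (-0.14) and Gpi1 (0.12) had adjusted p-values of 0.487 to 0.815. Over all cells of the gates red cell markers summed to 74.6 CPM in the lymphoid gate and 388 CPM in the stem gate, and mitotic markers to 3410 and 2811 CPM. Their part in the Pkm difference was not tested.

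In the megakaryocyte-erythroid gate the sums were too small to test any enzyme but Ldha by its own entry. Against the stem gate 23 of 343 tested genes (6.71%) were called, 4.08% higher and 2.62% lower, and Ldha was not among them. Ldha had 612 ± 142 CPM in the megakaryocyte-erythroid gate and 442 ± 63.98 CPM in the stem gate (SD, n = 6 pairs), and was higher in 6 of 6 libraries. The log2 fold change of 0.41 ± 0.24 (SE) had an adjusted p of 0.373 by edgeR and an unadjusted p of 0.0921, and DESeq2 did not call it. With sums of at least 5 cells, an alternative added after seeing the data, 14 libraries could be used, and Ldha was called at 0.52 (adjusted p = 0.0187). A UMI of Ldha was found in 30.5% (Wilson 95% interval 24.0% to 37.9%) of megakaryocyte-erythroid gate cells and in 18.1% (13.9% to 23.3%) of stem gate cells after thinning to 500 UMIs, and in 77.4% and 52.4% before it. Mitotic markers summed to 4373 CPM in the megakaryocyte-erythroid gate and 2811 CPM in the stem gate, LSK markers to 1231 and 2379 CPM, and the mitochondrial share was 9.39% and 10.9%. Their part in the Ldha values was not tested.

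The balance of the lactate dehydrogenase subunits leaned to Ldha in every library. The ratio of Ldha to Ldhb UMIs over kept cells was 7.58 to 32.2 (median 15.3), with 12.9 to 32.2 (median 20.7) in the 6 libraries of SB343 and 7.58 to 20 (median 13.04) in the 9 of SB341. By gate, pooled over libraries, it was 21.95 in the granule gate (900 Ldha and 41 Ldhb UMIs), 15.5 in the lymphoid gate (541 and 35), 29.0 in the megakaryocyte-erythroid gate (319 and 11) and 5.92 in the stem gate (219 and 37). The stem gate thus had the lowest ratio. Of its 37 Ldhb UMIs, 12 were in 1 cell of library 10, and without that cell Ldhb had 45.8 CPM there, against 67.7 with it and 21.8 to 23.1 in the other gates. The stem gate also had the lowest median depth, 1801 UMIs per cell, against 1907 to 2436 in the other gates. With each library's kept cells cut into 4 equal groups by depth, median Ldhb levels were 41.0, 37.5, 32.3 and 24.3 CPM. These run from the shallowest to the deepest group, with overlapping ranges, and Ldha had its highest median in the deepest. The part of depth in the ratios of the gates was not tested.

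The log2 ratio per library, with 0.5 UMI added to each count, was compared between gates with an exact two-sided sign-flip permutation test, adjusted over 5 comparisons. In the granule gate it was 4.29 ± 0.63 and in the stem gate 2.78 ± 1.42 (SD, n = 14 pairs), higher in 11 of 14 libraries, a difference of 1.503 ± 0.40 (SE) with an exact p of 0.00195 and an adjusted p of 0.00977. This was the 1 comparison called. It was not called in any batch taken alone, with an exact test and 1.48 (adjusted p = 0.186) in SB341 and 1.73 (adjusted p = 0.3125) in SB343, where 4 libraries cannot give a p under 0.125. It was not called with 0.1 in place of 0.5 UMI either (1.11, adjusted p = 0.212 by the same exact test), nor in cells thinned to 500 UMIs. An added constant pulls the log2 ratio toward 0 more in small sums than in large ones. Stem sums were the smaller, at a median of 32827.5 UMIs per library, against 112545 in the granule gate. How much of the difference the constant makes was not tested.

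The other 4 comparisons of the ratio were not called. Between the megakaryocyte-erythroid and stem gates the ratio was higher in 6 of 6 libraries, by 2.50 ± 0.72 (SE), and its exact p of 0.03125 is the smallest that 6 pairs allow (adjusted p = 0.0553). The megakaryocyte-erythroid sums of these 6 libraries held 2 of the 11 Ldhb UMIs of the gate, and the stem sums 21. This difference thus rests on very few molecules. Between the lymphoid and stem gates the difference was 0.94 ± 0.50 (exact adjusted p = 0.103), and between the granule and lymphoid gates 0.39 ± 0.32 (exact adjusted p = 0.233). Between mitotic and non-mitotic cells it was 0.70 ± 0.29, higher in 13 of 16 libraries (exact adjusted p = 0.0553). Ldhb had 0 UMIs in 0 of 16 granule sums, 3 of 16 lymphoid sums, 6 of 8 megakaryocyte-erythroid sums and 3 of 14 stem sums, so the added 0.5 UMI sets the ratio in those libraries.

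**Figure D4:**
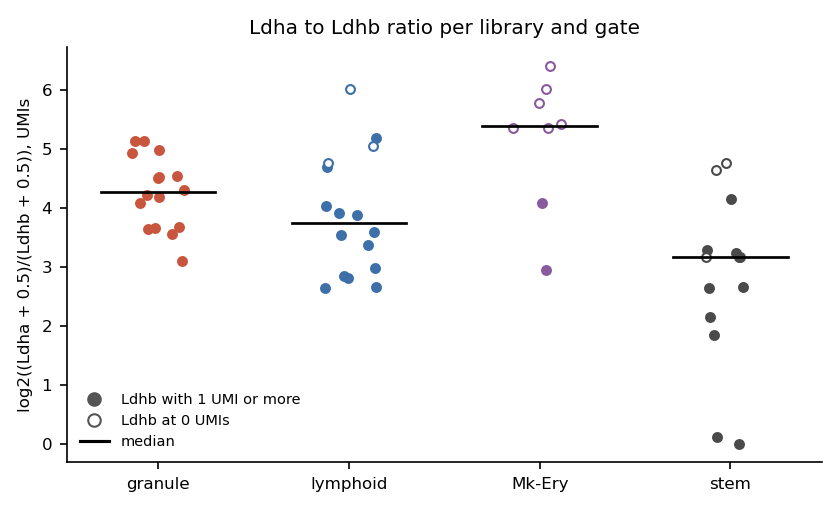
Log2 of the Ldha to Ldhb UMI ratio, with 0.5 UMI added to each, per library (points) in the granule, lymphoid, megakaryocyte-erythroid (Mk-Ery) and stem gates, with open points where Ldhb had 0 UMIs and a line at the median. Over 14 pairs the granule gate averages 4.29 and the stem gate 2.78, and 6 of the 8 Mk-Ery points are open.

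Cycling cells had less Aldoa. Among cells with at least 1500 UMIs, 1687 had at least 3 UMIs of mitotic markers such as Top2a, Mki67 and Cdk1, and 385 had none. Aldoa had 111 to 268 CPM (median 176) in mitotic cells, against 142 to 402 CPM (median 288) in non-mitotic cells. The ranges overlapped, and the mitotic sum was lower in 15 of 16 libraries. The means were 173 ± 49.5 and 283 ± 85.0 CPM (SD, n = 16 pairs), a log2 fold change of -0.82 ± 0.13 (SE) with an adjusted p of 3.01e-07.

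Of 7 enzymes tested in this comparison Aldoa was the 1 called, where 294 of 2362 tested genes (12.4%) were, 6.44% higher and 6.01% lower. Pgk1 had a log2 fold change of 0.38 (adjusted p = 0.102), Pgam1 0.12 (adjusted p = 0.688), Gpi1 -0.02 (adjusted p = 0.952), Tpi1 -0.07 (adjusted p = 0.804), Pkm -0.08 (adjusted p = 0.748) and Ldha -0.12 (adjusted p = 0.483). Within SB341 Aldoa stood at -0.95 (adjusted p = 0.000152, 9 libraries) and within SB343 at -0.59 (adjusted p = 0.108, 6 libraries). The difference between the batches in this fold change was 0.34 ± 0.28 (SE), adjusted p = 0.999. The step it catalyses, the split of the sugar, comes just before that of Tpi1, whose mean levels were 215 CPM in mitotic and 216 CPM in non-mitotic cells.

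Lineage markers moved with this comparison as well. Granule markers summed to 1370 CPM in mitotic and 799 CPM in non-mitotic cells, megakaryocyte-erythroid markers to 369 and 138 CPM, and stem markers to 261 and 420 CPM. Their part in the Aldoa difference was not tested.

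Depth differs between these cells, with a median of 2954 UMIs in mitotic and 1932 in non-mitotic cells, and Aldoa also moved with depth over all kept cells. With each library's cells cut into 4 equal groups by depth, from the shallowest to the deepest, the median Aldoa level was 259, 243, 200 and 188 CPM, and that of Ldha 377, 436, 435 and 493.2 CPM. The median Pgam1 level was 142, 149, 171 and 193 CPM. In cells of 1500 to 3000 UMIs only, with medians of 2143 UMIs in 864 mitotic and 1855 in 349 non-mitotic cells, Aldoa was still lower in mitotic cells, by a log2 fold change of -0.84 (adjusted p = 0.000105, 14 libraries). What is left of the depth gap in that range cannot be told apart from the cycle. Of the lineage gates' other comparisons, the same range left Pgam1 untested between granule and lymphoid cells, with 273 CPM in the granule gate and 167 CPM in the lymphoid gate pooled over 12 libraries, higher in 12 of 12.

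Between the sequencing batches 4 enzymes differed, in both directions. Of 9 tested, Eno1 and Aldoa were higher in SB343 and Pgk1 and Ldhb lower, where 1009 of 8017 tested genes (12.6%) were called, 4.55% higher and 8.03% lower. The batch is a technical label, and which mice each batch holds is not given.

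The batches also differed in the cells that passed the gates. Granule gate cells were 15.7% to 27.0% of the kept cells of a library in SB343 and 4.89% to 17.3% in SB341, and lymphoid gate cells 7.77% to 10% in SB343 and 10.4% to 21.6% in SB341, without overlap in the lymphoid gate. Mitotic markers summed to 3262 to 3947 CPM in SB343 and 2092 to 3126 CPM in SB341. The batch, its mice and this makeup cannot be told apart over whole libraries.

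Eno1, the enolase, had 87.7 to 149 CPM in SB343 and 10.6 to 55.1 CPM in SB341. The groups did not overlap, and library 1, with no batch listed, had 23.5 CPM. The means were 115 ± 21.9 CPM (SD, n = 6) and 34.4 ± 13.3 CPM (SD, n = 9), a log2 fold change of 1.65 ± 0.19 (SE) with an adjusted p of 2.10e-07 by edgeR. Within the granule gate alone Eno1 had 97.1 to 197 CPM in SB343 and 0 to 73.7 CPM in SB341, again without overlap, and within the lymphoid gate a median of 125 CPM in SB343 and 31.5 CPM in SB341, with overlap. Libraries 9 and 10 of SB341, which lie with SB343 by Nfkbiz, had 37.8 and 45.0 CPM. With the copies added to Eno1 the log2 fold change was 1.36 (adjusted p = 1.30e-07).

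Aldoa had 253 ± 32.1 CPM in SB343 and 181 ± 25.5 CPM in SB341, a log2 fold change of 0.40 ± 0.11 (SE) with an edgeR adjusted p of 0.00892. Within the granule gate the medians of Aldoa were 301 CPM in SB343 and 199 CPM in SB341, and within the lymphoid gate 193 and 155 CPM. Pgk1 had 101 to 208 CPM in SB343, against 183 to 235 CPM in SB341. Its log2 fold change of -0.41 ± 0.13 (SE, adjusted p = 0.0286 by edgeR) rests on libraries 15 and 16, at 101 and 126 CPM, and the call was lost without library 5, 15 or 16, with adjusted p-values of 0.0163 to 0.0961 over the alternatives. Ldhb had 14.2 to 38.6 CPM in SB343 and 24.9 to 52.8 CPM in SB341, a log2 fold change of -0.75 ± 0.23 (SE, adjusted p = 0.0265 by edgeR), lost without library 6, 7, 11, 12, 15 or 16. Within the granule gate Pgk1 had medians of 209 CPM in SB343 and 252 CPM in SB341, and Ldhb 19.9 and 24.2 CPM. The most abundant enzymes were not among the calls. Ldha, Pkm, Gpi1 and Tpi1 had log2 fold changes between -0.06 and -0.01 with adjusted p-values of 0.786 to 0.961. Pgam1 stood at -0.26 (adjusted p = 0.117).

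**Figure D5:**
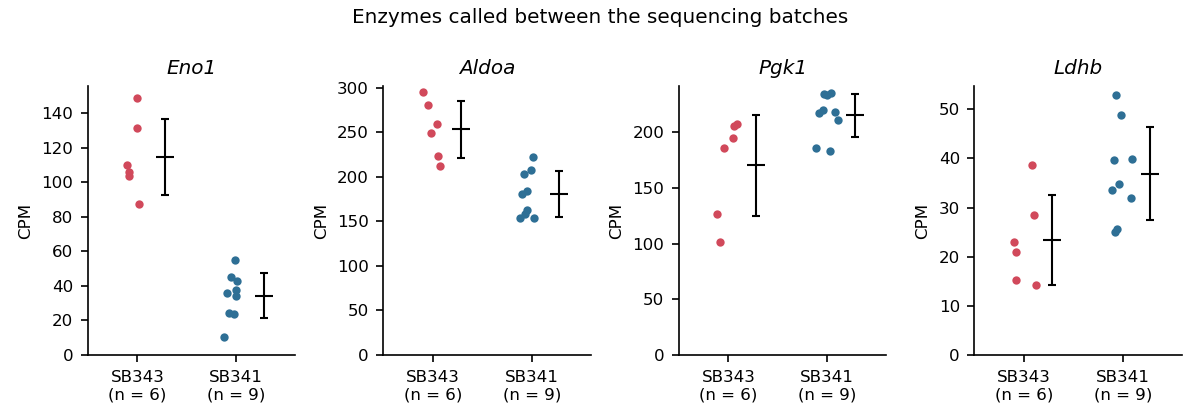
CPM per library (points) of Eno1, Aldoa, Pgk1 and Ldhb in sequencing batches SB343 (6 libraries) and SB341 (9 libraries), with mean and SD beside the points and axes starting at 0. Eno1 in SB343, 87.7 to 149 CPM, lies above all SB341 libraries, 10.6 to 55.1 CPM, while the other 3 enzymes overlap.

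Whether the gate differences themselves differed between batches was tested with a gate by batch term. No enzyme was called. Over all tested genes edgeR called 0 of 1553 for the granule and lymphoid gates, 0 of 724 for the granule and stem gates, 0 of 688 for the lymphoid and stem gates, 0 of 343 for the megakaryocyte-erythroid and stem gates and 1 of 2379 for mitotic and non-mitotic cells. At an unadjusted p under 0.05 the counts were 51, 42, 50, 16 and 108. The largest such term among the enzymes in the granule and lymphoid comparison was that of Tpi1, 0.76 ± 0.32 (SE, adjusted p = 0.999).

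Genes around the pathway were mostly low, and few were called. Of 17 glucose entry genes, which bring in and phosphorylate glucose, the most abundant were Hk1 (95.2 CPM over all kept cells), Pfkl (55.1), Hk3 (35.5) and Pfkp (28.5). Of 12 isozymes of the 10 enzymes the most abundant were Bpgm (16.3), Aldoc (7.09), Eno3 (4.02) and Eno1b (3.93). No gene of either list was testable between the lineage gates. Between the batches 9 glucose entry genes and 1 isozyme were tested, and 1 was called, where 12.6% of all tested genes were. It was Hk3, a hexokinase of myeloid cells, higher in SB343 by 1.31 (adjusted p = 0.000732). The share of granule gate cells also differed between the batches, and its part in the Hk3 difference was not tested.

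Genes that handle pyruvate and lactate were below the upper enzymes. Of 16 pyruvate and lactate genes Bsg, a chaperone of lactate transporters, had 120 CPM, the pyruvate dehydrogenase subunit Pdha1 113, the mitochondrial pyruvate carrier Mpc2 113 and Dld 76.3. Of 7 genes of the branch into pentose phosphates Taldo1 had 227 CPM, Pgls 182, Rpia 72.4 and Pgd 58.8. Of 3 and 2 tested between the granule and lymphoid gates 0 were called by edgeR, where 8.2% of all tested genes were. Of 10 and 7 tested between the batches 1 of each list was called, where 12.6% of all tested genes were. Between the batches Tkt, the transketolase, was higher in SB343 by 2.10 (adjusted p = 2.62e-06), and the pyruvate carrier Mpc1 was lower by a log2 fold change of -2.22 (adjusted p = 2.91e-07).

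Regulators and other hypoxia targets gave 3 calls. Of 12 regulators Myc had 253 CPM, Meis1 98.0, Max 57.2 and Egln1 46.1, and Meis1 was lower in mitotic cells by a log2 fold change of -0.68 (adjusted p = 0.0286). Of 12 hypoxia targets outside glycolysis Mif had 531 CPM, Bnip3l 89.9, Higd1a 40.4 and Kdm3a 29.1. Mif, a cytokine, was the 1 hypoxia target testable between the granule and lymphoid gates, and was higher in the granule gate by 0.37 (adjusted p = 0.00205). Higd1a was higher in SB343 by 0.88 (adjusted p = 0.00565). Over all tested genes 12.4% were called between mitotic and non-mitotic cells, 8.2% between the granule and lymphoid gates and 12.6% between the batches.

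The citric acid cycle, which takes up pyruvate carbon in mitochondria, gave no call. Its 17 genes were led by Mdh1 (283 CPM), Mdh2 (231), Sdhb (216) and Idh3g (190). Of 13 tested between the granule and lymphoid gates 0 were called by edgeR, where 8.2% of all tested genes were. Of these 13, 5 had a fold change above 0, with a median log2 fold change of -0.04, against 0.00 over all tested genes. The lowest adjusted p among them was that of Mdh1, 0.0873, at -0.32. Of 14 tested between mitotic and non-mitotic cells 0 were called, where 12.4% of all tested genes were. Of these 14, 11 lay above 0, with a median of 0.14, against 0.01 over all genes. Of 17 tested between the batches 0 were called, where 12.6% of all tested genes were. With so few genes tested, 0 calls does not set the cycle apart from those shares.

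The summed level of the 10 enzymes was set beside 1516 other genes over 54 library and gate sums, as log2 of CPM with 10 added. The genes most like it were Gm5559 (Pearson r = 0.53), the translation factor Eif4h (0.52), the protein disulfide isomerase Pdia6 (0.52), the chaperone Calr (0.51) and Dctpp1 (0.50). The sums share libraries and depth, so these values describe likeness only. Each enzyme alone followed the sum of the other 9 weakly, with r from -0.02 for Eno1 to 0.22 for Tpi1.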

How the data were processed

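Single LSK cells of 16 libraries were measured, all in 1 group per the labels. The authors deposited UMI counts per gene and well, not normalized, and a well table with the batch and cell number of wells. The submitters' processing notes name bcl2fastq 2.15.0.4 and mm10. Not given in the sources used here are the aligner, the annotation, the counting tool and how it treated strand and reads that match several loci. The 92 spike-in entries were left out. Nothing in the labels says which libraries share mice, so p-values measure only the spread between these libraries, which may be technical.

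The 10 enzymes, the companion lists, the markers and the tests were chosen with earlier results of these data known. All 10 enzymes are named, as well as the 4 most abundant genes of each companion list, every gene of such a list that was called, and the 5 genes at 100 CPM or more most like the summed level. Cells with at least 500 UMIs and under 20% mitochondrial UMIs were kept. Since no listed well had more than 1 cell, doublets were not called. Counts were summed per library, or per library and gate, at 10 cells or more per sum. The tests were run in edgeR 4.0.16 (R 4.3.3, quasi-likelihood F test, TMM, filterByExpr, library as block), with Benjamini-Hochberg adjustment at 0.05 over all tested genes that are not markers. Sums were paired by library, because the 2 gates of a pair hold cells of the same plates. The batch comparison had no block. The edgeR step was tested on simulated data.

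Alternatives were DESeq2 1.42.0, no filter, no block, cells thinned to 500 UMIs, other cell and gate minimums, mitochondrial and ribosomal protein genes left out, each batch alone, and each library left out. Added after seeing the data were copies, at least 5 cells per sum, and cells of 1500 to 3000 UMIs. Copies were searched with BLAST 2.17.0 among transcripts of the reference annotation (GRCm38) at 95% identity over 200 bases. Gene positions are from that annotation and promoters from RefSeq (GRCm38.p6), in which 10 of the 10 enzymes matched by symbol.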

Additional observations from a re-analysis of the deposited data

Results flagged for a closer look

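A sample stood far from the others of its group in 3 of 35 groups of 4 to 10 libraries tested, where chance alone flags about 1 in 20. Pgam1 had 128 CPM (127.847) in library 15 of batch SB343, against 172 to 195 CPM in the other 5 libraries of that batch. Ldhb had 44.8 CPM in the megakaryocyte-erythroid gate of library 11, against 0 to 19.99 CPM in the other 7 libraries. Of the 8 sums of this gate 6 held 0 Ldhb UMIs, and the smallest sum held 22299 UMIs. These Ldhb values thus stand for very few molecules, and this flag says little about the library. The 10 enzymes summed to 2313 CPM in the megakaryocyte-erythroid gate of library 15, against 1609 to 1899 CPM in the other 7.

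Signal was also seen outside the kept cells. The 60 wells listed as empty held 4 UMIs of the 10 enzymes among 801 UMIs. The 86 wells over the mitochondrial maximum held 125 among 100114 UMIs, which is 1249 CPM, below the lowest library of kept cells at 1704 CPM. The 362 wells with at least 300 but under 500 UMIs held 276 among 148626 UMIs, which is 1857 CPM, within the range of the kept cells.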

How the results depend on the processing

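Over the 10 called enzyme values the sign was kept in 231 of 231 alternatives in which the enzyme could be tested. Of 846 alternatives of all tested enzyme values, 787 kept the sign and the side of the threshold, 53 lost a call, 6 gained one, and 34 changed sign with neither value called. Pgam1 between the granule and lymphoid gates was called in 27 of 27 alternatives (adjusted p 3.34e-09 to 0.0131), and Eno1 and Aldoa between the batches in 18 of 18 each. The cause of the changes below was not tested, except that smaller sums leave fewer genes to test.

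Without the filter the median of the genes tested with it shifted by 0.45 for the granule and stem gates, 0.41 for the lymphoid and stem gates and 0.36 for mitotic cells, all log2, and 355 genes (3 enzymes), 419 (0 enzymes) and 1049 genes were called, with 1548 between the batches. The 3 enzymes were Pgam1 (1.44), Ldha (0.66) and Gpi1 (0.73), to be read against that shift. Aldoa, at -0.46, was not called in mitotic cells there.

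Counts of called genes are given in the order granule and lymphoid, granule and stem, lymphoid and stem, megakaryocyte-erythroid and stem, mitotic and non-mitotic, with those that changed by over 1.5 times or lost or gained an enzyme. DESeq2 called 79 in the first and 5 in the fourth, and 0 enzymes in the third. With no replicate block, that is with no pairing of the sums of a library, the counts were 76, 43, 25 (0 enzymes), 4 and 181. With cells thinned to 500 UMIs they were 2, 1 and 2 (0 enzymes in each) and 30 in mitotic cells, where Ldha was called (-0.44, adjusted p = 0.0283). In cells of 1500 to 3000 UMIs they were 8, 9 and 10 (0 enzymes in each) and 132 in mitotic cells. With 5 marker UMIs per gate they were 85, 2 (0 enzymes) and 10 (0 enzymes). With 2 marker UMIs the third comparison kept 0 enzymes, as it did with at least 1000 UMIs per cell, where the fourth had 1 gene, and with mitochondrial and ribosomal protein genes left out. With 0 mitotic UMIs the third had 5 genes (0 enzymes). With at least 5 cells per sum the fourth had 44 genes (1 enzyme, Ldha). Within SB341 the counts were 54 in the first, 27 (0 enzymes) in the third, 0 in the fourth (2 libraries) and 162 in the fifth. Within SB343 they were 32 (1 enzyme), 21 (0 enzymes), 14 (0 enzymes), 8 and 92 (0 enzymes).

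Leaving out each library in turn gave 110 to 136 genes (2 to 3 enzymes), 54 to 74 (1 in each), 36 to 50 (0 to 1), 9 to 21 (0), 259 to 315 (1 to 2) and, between the batches, 886 to 1027 (2 to 4). The ratio differences then ranged from 0.28 to 0.57, 1.304 to 1.65, 0.72 to 1.14, 1.86 to 2.84 and 0.59 to 0.87. The granule and stem difference in the ratio was 0.59 in thinned cells, 0.50 with 5 marker UMIs, 1.11 with 0.1 UMI added, 1.48 within SB341 and 1.73 within SB343, not called in any of these. With 1 UMI added the lymphoid and stem difference (1.02), the megakaryocyte-erythroid and stem difference (1.95) and the mitotic difference (1.00) were called. The median sum of the 10 enzymes was 3260 CPM with copies and 2590 CPM with mitochondrial and ribosomal protein genes left out.

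Not run, for want of sums of 10 cells, were cells with 0 mitotic UMIs in all but the lymphoid and stem gates, the thinned cells, the 1500 to 3000 UMI range and 5 marker UMIs in the megakaryocyte-erythroid gate, and at least 2500 UMIs in mitotic cells. Depth limits Eno1 and Ldhb between gates, and the enzymes other than Ldha and Gapdh in the megakaryocyte-erythroid gate. The Gapdh entry was too low to test between gates, and copies held 99.5% of the UMIs of Gapdh and its copies. With its copies added Gapdh could be tested in each comparison of gates.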
